A study of Homo sapiens with 6 samples.

Results

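The genes examined here make the MHC class I antigen presentation machinery: HLA-B, HLA-C, HLA-E, B2M, TAP1, TAP2, TAPBP, PSMB8 and PSMB9. They were chosen by symbol from the gene names in the deposited expression table, and all 9 were found, on 8 of its 35544 rows, because HLA-B and HLA-C share 1 row. RNA was measured in SiHa, an established cell line from a human squamous carcinoma of the cervix. One group of 3 libraries came from cells transfected with a plasmid for hsa_circ_0005358, a circular RNA that the labels spell in 3 ways, and the other 3 came from cells transfected with a vector plasmid. All cells were collected 72 h after transfection, and the 2 groups are called circ_0005358 and vector below. The study looked for mRNAs downstream of the circular RNA, and the question here is whether class I presentation genes were among those that differed. The labels number the libraries without naming separate cultures, so each p-value reflects the spread between libraries alone, and that spread may be technical. RNA came from whole cultures, in which fewer cells of a type and less RNA per cell cannot be told apart.

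MHC class I molecules carry short peptides from the cell's own proteins to its surface, where cytotoxic T cells and natural killer cells read them. Proteasomes cut the peptides, the TAP transporter moves them into the endoplasmic reticulum, and a loading complex fits them onto a heavy chain paired with beta-2 microglobulin. Most genes of this machinery are induced by interferon, in part through IRF1, and the transactivator NLRC5 acts on class I promoters together with the RFX and NF-Y factors. Loss of this machinery is a well-known route of immune escape in cervical carcinoma.

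The heavy chain genes are close relatives, and the reference coding sequences are shown first because they bear on what the HLA rows can resolve. HLA-B and HLA-C encode classical heavy chains, which present peptides to T cells, and HLA-E encodes a heavy chain that presents leader peptides to natural killer cells. The longest stretch that the GENCODE 29 coding sequences of HLA-C and HLA-B have in common is 66 bases in exon 3, at chr6:31271207-31271272 (HLA-C) and chr6:31356301-31356366 (HLA-B) on the minus strand of GRCh38. The best match in HLA-E lies at chr6:30490316-30490381 on the plus strand and differs at 6 bases, shown in capitals.
HLA-C and HLA-B: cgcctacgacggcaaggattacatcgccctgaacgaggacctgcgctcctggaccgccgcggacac
HLA-E: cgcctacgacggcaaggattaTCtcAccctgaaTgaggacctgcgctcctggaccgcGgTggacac
Of the 1070 windows of 50 bases in the HLA-C coding sequence, 17 (1.59%) occurred letter for letter in HLA-B and 26 (2.43%) in HLA-E. These are reference alleles, and the alleles of SiHa were not analysed here, so how many fragments of each heavy chain were assigned to the right gene cannot be told from the table.

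The promoters of B2M, TAP1, PSMB9 and HLA-B are shown with exact matches to 3 short patterns linked to interferon factors and NF-Y. The windows, from RefSeq on GRCh38.p14, run from 250 bases before to 50 bases after the annotated start, and 8 of the 9 genes had 1 or more. The letters searched, on both strands, were GAAA followed after any 2 bases by another GAAA (the core of the interferon-stimulated response element) and TTCNNNGAA (the gamma-activated site), both in capitals below, and CCAAT, the NF-Y box, which is not capitalised. The windows are B2M at chr15:44711267-44711566 on the plus strand, TAP1 at chr6:32853655-32853954 on the minus strand, PSMB9 at chr6:32853942-32854241 on the plus strand and HLA-B at chr6:31357130-31357429 on the minus strand.
B2M: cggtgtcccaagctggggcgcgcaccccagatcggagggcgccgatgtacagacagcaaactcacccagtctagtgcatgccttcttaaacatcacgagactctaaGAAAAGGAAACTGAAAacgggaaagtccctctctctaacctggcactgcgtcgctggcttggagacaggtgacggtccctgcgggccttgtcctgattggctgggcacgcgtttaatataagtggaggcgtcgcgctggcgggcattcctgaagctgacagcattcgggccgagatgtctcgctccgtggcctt
TAP1: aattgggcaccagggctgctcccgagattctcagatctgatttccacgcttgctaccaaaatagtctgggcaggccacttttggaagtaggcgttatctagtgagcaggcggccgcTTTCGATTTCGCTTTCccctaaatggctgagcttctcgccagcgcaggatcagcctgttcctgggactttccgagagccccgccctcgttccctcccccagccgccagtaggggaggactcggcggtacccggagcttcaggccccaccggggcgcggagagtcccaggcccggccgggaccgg
PSMB9: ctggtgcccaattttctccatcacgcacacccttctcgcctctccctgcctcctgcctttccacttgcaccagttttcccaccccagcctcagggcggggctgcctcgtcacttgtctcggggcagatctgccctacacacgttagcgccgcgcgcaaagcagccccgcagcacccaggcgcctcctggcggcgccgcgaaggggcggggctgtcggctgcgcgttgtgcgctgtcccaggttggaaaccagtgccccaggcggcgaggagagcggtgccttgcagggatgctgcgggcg
HLA-B: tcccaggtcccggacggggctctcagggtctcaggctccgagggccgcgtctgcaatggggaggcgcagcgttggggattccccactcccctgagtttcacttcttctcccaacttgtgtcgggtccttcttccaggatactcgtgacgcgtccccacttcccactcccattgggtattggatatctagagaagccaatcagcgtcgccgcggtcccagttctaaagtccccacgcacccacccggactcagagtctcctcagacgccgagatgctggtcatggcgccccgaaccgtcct
The response element core stood in windows of B2M, TAP1, TAP2, TAPBP and PSMB8, and in 3.57% of all 35116 windows of this length. For TAP1 and PSMB8 it stood in 1 of the 2 windows. Its matches in B2M, TAP1 and TAPBP were 2 overlapping ones each. The gamma-activated site stood in 1 of the 2 windows of TAP1 and of PSMB8 and in 7.66% of all windows. CCAAT stood in windows of HLA-B, HLA-C, B2M, TAP1 (1 of the 2) and PSMB9 and in 34.6% of all windows. TAP1 and PSMB9 are transcribed away from each other, with 488 bases between the starts of these windows' transcripts, and the windows overlap by 13 bases. A match is a description of the letters and not of a bound factor. Only exact matches were searched, so a window without one, such as that of HLA-B, may still hold a variant of the element.

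Expression was given as FPKM, in which fragments are divided by the length of the transcript and the size of the library. Of the 8 member rows, 4 carry a single name (HLA-E, B2M, TAP1 and PSMB8) and 4 are joined: HLA-B with HLA-C, TAP2 with HLA-DOB and AL669918.1, TAPBP with ZBTB22, and PSMB9 with PSMB8-AS1, the antisense RNA of its neighbour. Values of a joined row cannot be split between its genes. On GRCh38 all members but B2M lie on chromosome 6 between 30489467 and 33314387, with TAP2 (32821833 to 32838780), PSMB8 (32840717 to 32844703), TAP1 (32845209 to 32853978) and PSMB9 (32844136 to 32859585) close together. The GENCODE span of PSMB9 contains that of TAP1 and overlaps that of PSMB8, both on the other strand. B2M lies on chromosome 15 from 44711487 to 44718877. The GENCODE span of HLA-B, 31269491 to 31357188, overlaps that of HLA-C, 31268749 to 31272130.

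The libraries had FPKM sums between 138864 and 145278, and the value of 1 fragment on loci with a single transcript put their depth at 71.1% of the deepest in circ_0005358 replicate 2 and at 93.6% to 100% in the other 5. These relative depths are estimates, and absolute depth is not known, so no counting interval was drawn. Of the keratin rows that mark an epithelial line, KRT7, KRT8, KRT17 and KRT18 averaged between 85.1 and 269 FPKM with circ_0005358, against 142 to 625 FPKM with vector. The joined row of KRT5 and KRT6A was far lower, at 1.10 ± 0.18 FPKM with circ_0005358 and 10.2 ± 1.56 FPKM with vector (SD, n = 3 each). Other epithelial markers of the list were low or intermediate. EPCAM averaged 1.39 FPKM with circ_0005358 and 2.41 FPKM with vector, and CDKN2A 17.6 and 15.8 FPKM. TP63 stayed at or below 0.254 FPKM in every library and was not tested. Of 10 leukocyte markers with a row of their own, 9 stayed below 1 FPKM in every library. The highest sum of these 9 in any library was 0.621 FPKM with circ_0005358 and 1.45 FPKM with vector. Both are maxima of single libraries and not group means, and the vector maximum was that of replicate 3. That library held 27803 loci above 0 FPKM, against 23227 to 23834 in the other 5. The marker above 1 FPKM, CD14, stood at 10.7 ± 8.13 FPKM with circ_0005358 and 11.4 ± 1.63 FPKM with vector (SD, n = 3 each), and circ_0005358 replicate 1 stood apart at 1.33 FPKM.

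The class I machinery was expressed in all 6 libraries, and none of its rows passed the test between the groups. Loci with at least 1 FPKM in at least 3 libraries were tested with limma on log2(FPKM + 1) in a two-sided test, and a locus was called when its Benjamini-Hochberg adjusted p was under 0.05. All 8 member rows entered the test, 0 were called higher and 0 lower, and 1 (the TAP2 row) had an unadjusted p under 0.05. Of all 10295 tested loci, 11.4% were called (6.41% higher and 4.96% lower), and 27.3% had an unadjusted p under 0.05. The median log2 fold change was 0.02 over the member rows and 0.02 over all tested loci, and the median size without sign was 0.11 over the member rows and 0.17 over all tested loci. No 95% interval of a member's log2 fold change reached below -0.48 or above 0.51, and that of TAPBP was the widest. No member row was called under any of the 17 alternative settings in which it was tested, where the lowest adjusted p was 0.11, for the TAP2 row with each library rescaled to the same sum.

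**Figure D1:**
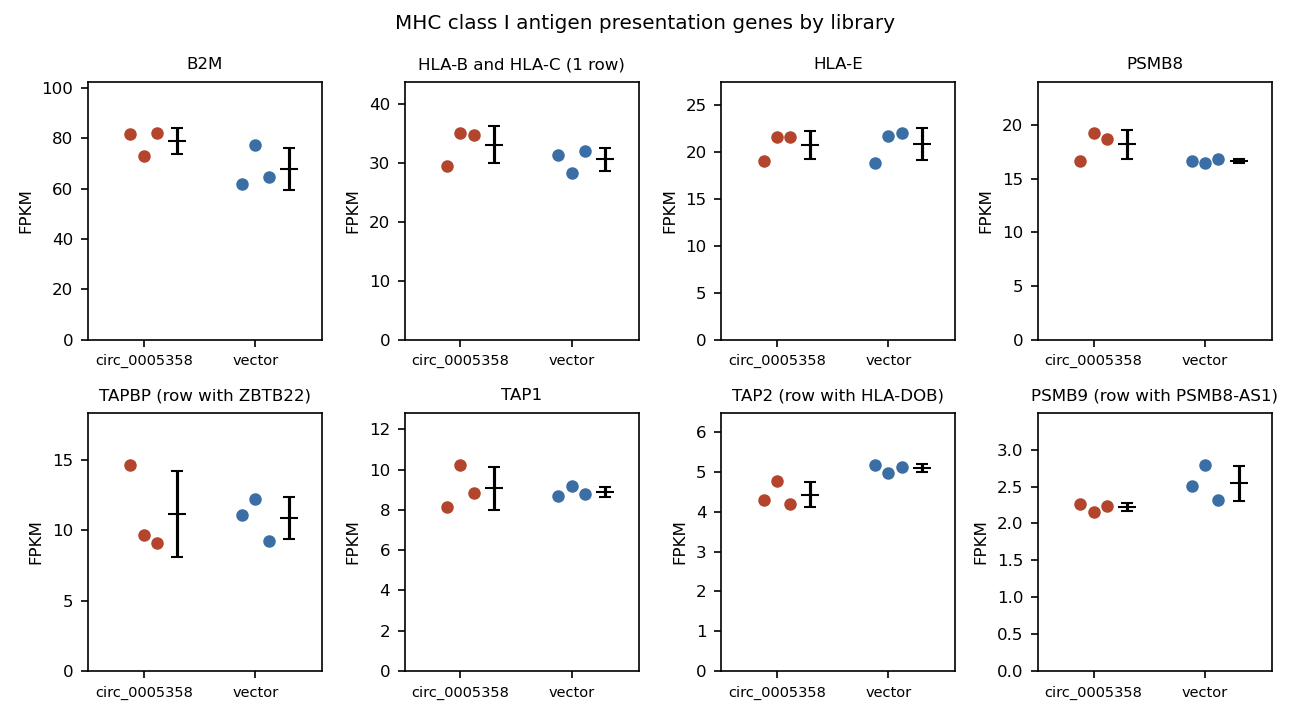
FPKM of the 8 member rows in each library, with circ_0005358 left (red) and vector right (blue); points are libraries, bars are the mean and SD of 3, and each axis starts at 0. The groups share a range in 6 panels, while the TAP2 and PSMB9 rows are lower in every circ_0005358 library than in any vector library.

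B2M, the light chain that every class I molecule needs, was the most abundant member in every library. It stood at 81.5, 73.0 and 82.1 FPKM with circ_0005358, against 61.7, 77.4 and 64.5 FPKM with vector. Vector replicate 2 lay above circ_0005358 replicate 2, so the groups overlapped. The log2 fold change was 0.22 (standard error 0.10), with an interval from -0.04 to 0.48 (limma, adjusted p = 0.25; exact two-sided permutation p = 0.2, where 0.1 is the smallest that 3 against 3 libraries allow). That was the largest positive log2 fold change among the member rows.

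The row of the classical heavy chains HLA-B and HLA-C held 29.5, 35.03 and 34.8 FPKM with circ_0005358, against 31.4, 28.3 and 32.0 FPKM with vector. The lowest circ_0005358 library fell inside the vector range. Its log2 fold change was 0.11 with an interval from -0.12 to 0.34 (limma, adjusted p = 0.508), and it lay between 0.06 (without vector replicate 2) and 0.19 (without circ_0005358 replicate 1) when 1 library was left out. HLA-E, the ligand of the natural killer receptor NKG2A, held 19.0, 21.6 and 21.6 FPKM with circ_0005358, against 18.9, 21.7 and 22.01 FPKM with vector. The means, 20.7 ± 1.48 FPKM with circ_0005358 and 20.9 ± 1.74 FPKM with vector (SD, n = 3 each), differed by less than either SD, and the log2 fold change was -0.01 with an interval from -0.22 to 0.21 (limma, adjusted p = 0.972).

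TAP1 and TAP2 encode the 2 chains of the peptide transporter. TAP1 held 8.13, 10.2 and 8.85 FPKM with circ_0005358, against 8.70, 9.18 and 8.79 FPKM with vector. The circ_0005358 libraries held both the lowest and the highest value, and the log2 fold change of 0.02 had an interval from -0.20 to 0.25 (limma, adjusted p = 0.905) and was negative when libraries were rescaled to the same sum or quantile normalized. The TAP2 row held 4.31, 4.78 and 4.20 FPKM with circ_0005358, against 5.19, 4.98 and 5.14 FPKM with vector. Every circ_0005358 library lay below every vector library. The log2 fold change was -0.17 (standard error 0.07), with an interval from -0.33 to -0.01 (limma, unadjusted p = 0.0442, adjusted p = 0.17; exact permutation p = 0.1). The share of that row which belongs to HLA-DOB, a class II gene, was not tested.

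TAPBP encodes tapasin, which holds the empty heavy chain beside the transporter. Its row held 14.7, 9.69 and 9.10 FPKM with circ_0005358, against 11.1, 12.2 and 9.26 FPKM with vector. Circ_0005358 replicate 1 stood above the other 5 libraries, and the remaining circ_0005358 libraries lay below 2 of the 3 vector libraries. The log2 fold change was 0.02 with an interval from -0.48 to 0.51 (limma, adjusted p = 0.97), and it was -0.18 without circ_0005358 replicate 1 and also negative under both rescalings.

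PSMB8 and PSMB9 encode catalytic subunits of the immunoproteasome, the form of the proteasome that favours class I peptides. PSMB8 held 16.6, 19.3 and 18.7 FPKM with circ_0005358, against 16.7, 16.5 and 16.9 FPKM with vector. The vector libraries differed by less than the circ_0005358 libraries, 1 of which fell among them. The log2 fold change of PSMB8 was 0.12 with an interval from -0.05 to 0.29 (limma, adjusted p = 0.336), and it was 0.18 without circ_0005358 replicate 1 and 0.08 without circ_0005358 replicate 2. The PSMB9 row was the lowest of the members, with 2.26, 2.16 and 2.23 FPKM with circ_0005358, against 2.51, 2.80 and 2.32 FPKM with vector. Every circ_0005358 library lay below every vector library, and the log2 fold change was -0.14 with an interval from -0.32 to 0.04 (limma, adjusted p = 0.296; exact permutation p = 0.1) and was -0.08 without vector replicate 2. The 2 member rows whose groups did not overlap, TAP2 and PSMB9, are 25% of the member rows, against 35.8% of all tested loci with no overlap between groups.

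**Figure D2:**
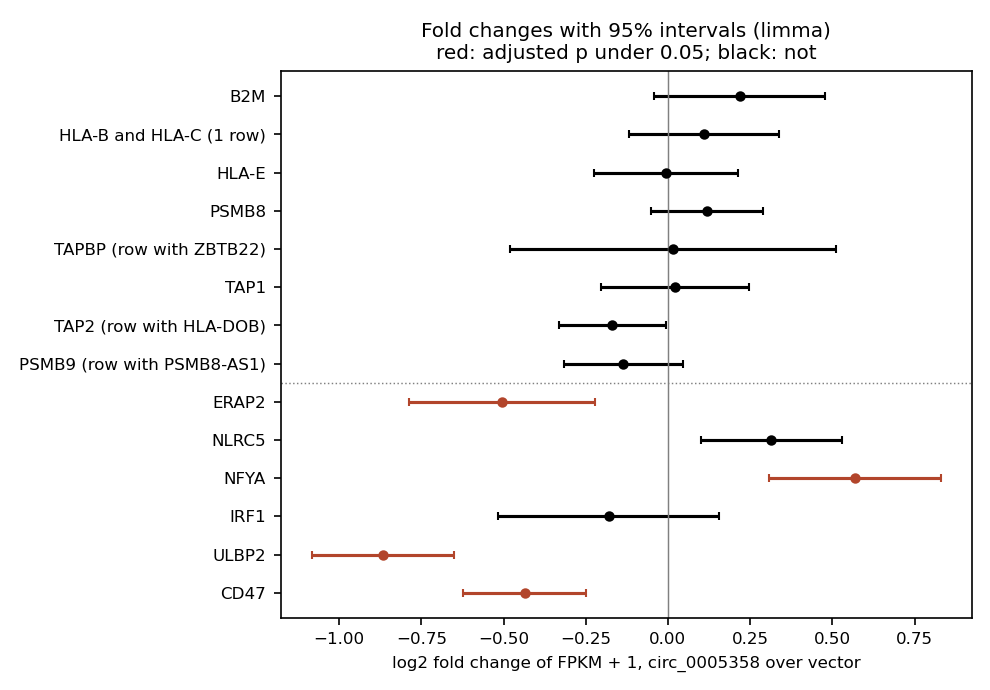
Log2 fold change of FPKM + 1 (circ_0005358 over vector, horizontal axis) with its 95% interval from limma, for the 8 member rows above the dotted line and 6 related genes below it; red marks an adjusted p under 0.05. The members lie between -0.17 and 0.22, and ERAP2, NFYA, ULBP2 and CD47 are the genes in red. ERAP2 met the filter only in vector libraries.

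Per length, the order of levels was B2M, the HLA-B and HLA-C row, HLA-E, PSMB8, the TAPBP row, TAP1, the TAP2 row and the PSMB9 row, with means over all 6 libraries of 73.4, 31.8, 20.8, 17.4, 11.01, 8.98, 4.76 and 2.38 FPKM. Among tested loci B2M lay at percentile 97.6 of mean FPKM and the PSMB9 row at percentile 21.2. HLA-E exceeded PSMB8 in all 6 libraries although their ranges overlapped, and the TAPBP row exceeded TAP1 in 5 of 6. For the other 5 neighbouring pairs in this order the ranges did not overlap.

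Ratios within a library do not depend on its scaling, and they set each member beside its partner. PSMB8 takes the place of PSMB5 in the immunoproteasome, and their ratio was 0.350, 0.454 and 0.428 with circ_0005358, against 0.411, 0.422 and 0.450 with vector. The groups overlapped, and the difference of -0.07 on the log2 scale did not pass (exact two-sided permutation p = 0.9) and was 0.043 without circ_0005358 replicate 1. PSMB5 itself held 44.6 ± 2.63 FPKM with circ_0005358 and 39.0 ± 1.62 FPKM with vector (SD, n = 3 each; limma, adjusted p = 0.134). The other 4 ratios contain a joined row and are given as values without a test.

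PSMB9 replaces PSMB6, and the ratio of its row to PSMB6 was 0.0555, 0.0503 and 0.0568 with circ_0005358, against 0.0595, 0.0714 and 0.0573 with vector. PSMB10, the remaining immunoproteasome subunit, replaces PSMB7, and the ratio of its row to PSMB7 was 0.0799, 0.106 and 0.0769 with circ_0005358, against 0.1004, 0.0966 and 0.1003 with vector. The PSMB10 row, which joins CTRL and AC040162.1, held 3.90 ± 0.40 FPKM with circ_0005358 and 3.68 ± 0.131 FPKM with vector (SD, n = 3 each; limma, adjusted p = 0.661). All 3 immunoproteasome rows were less abundant than their constitutive partners in every library. The TAP1 to TAP2 ratio was 1.89, 2.14 and 2.11 with circ_0005358, against 1.68, 1.84 and 1.71 with vector, and each circ_0005358 value was the higher. B2M exceeded the summed HLA-B, HLA-C and HLA-E rows in every library, with ratios of 1.68, 1.29 and 1.46 with circ_0005358, against 1.23, 1.55 and 1.19 with vector.

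**Figure D3:**
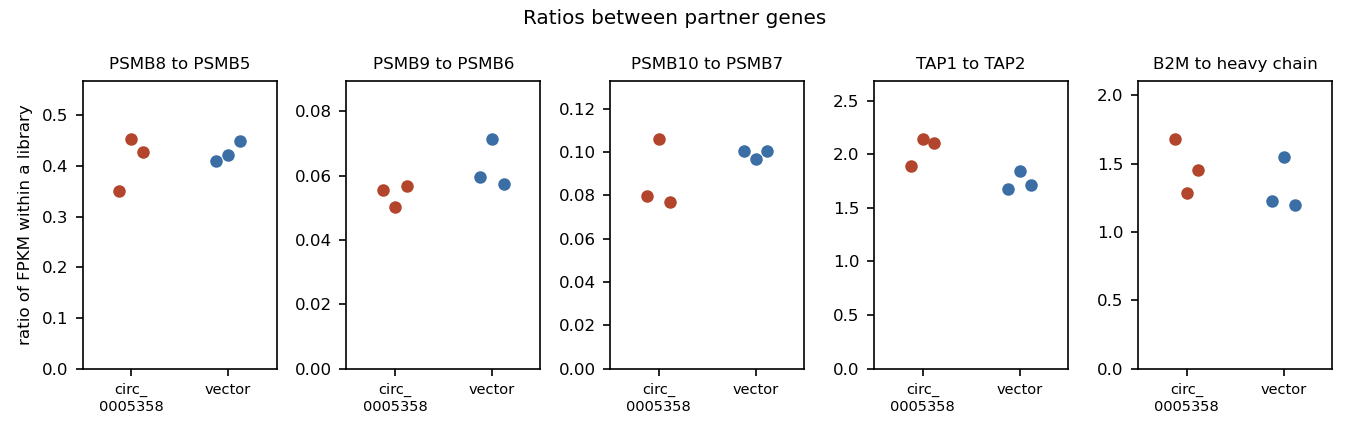
Ratio of FPKM between partner genes within each library (vertical axes start at 0), circ_0005358 left (red) and vector right (blue), 3 libraries each. The groups overlap for PSMB8 to PSMB5, PSMB10 to PSMB7 and B2M to heavy chains, and they do not for PSMB9 to PSMB6 and TAP1 to TAP2.

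The other genes of the pathway were read from a list of 18 genes, most of them for heavy chains, peptide processing and loading. It also holds SEC61A1, TMEM129 and NLRC5, and NLRC5 is counted again in the list of transcription genes. Of its 17 tested rows, 0 were called higher and 1 lower, with a median log2 fold change of 0.06, and 6 had an unadjusted p under 0.05. The shares over all tested loci were 6.41% called higher, 4.96% called lower and 27.3% with an unadjusted p under 0.05. Across 17 alternatives the list had 0 to 2 rows called higher and 0 or 1 called lower. ERAP2, an aminopeptidase that trims peptides in the endoplasmic reticulum, fell to 0.635, 0.617 and 0.708 FPKM with circ_0005358, against 1.01, 1.48 and 1.59 FPKM with vector (log2 fold change -0.50, limma, adjusted p = 0.0479). Every circ_0005358 value lay under the filter of 1 FPKM, so ERAP2 entered the test only through the vector libraries, where it is high. The filter thus favours a lower call for this gene. The ERAP2 call was lost in 7 of the 12 alternatives that tested it. These include the test with no filter on low values (limma, adjusted p = 0.157). They also include each circ_0005358 library left out (limma, adjusted p = 0.116, 0.122 and 0.114 without replicates 1, 2 and 3). ERAP2 missed the filter when any 1 vector library was left out. HSPA5, the chaperone BiP of the endoplasmic reticulum, chosen after its values were seen, held 152, 143 and 152 FPKM with circ_0005358, against 129, 131 and 130 FPKM with vector. Its groups did not overlap, and it did not pass (log2 fold change 0.20, limma, adjusted p = 0.0528), but it was called higher in 3 of 17 alternatives, with a lowest adjusted p of 0.0371. The chaperones CALR, CANX and PDIA3, chosen after their values were seen, averaged 188, 127 and 131 FPKM with circ_0005358, against 182, 123 and 121 FPKM with vector, and did not pass (limma, adjusted p = 0.668, 0.583 and 0.306). PSME1 and PSME2, also chosen after their values were seen, encode the proteasome activator PA28, and PSME2 held 19.6, 18.2 and 19.8 FPKM with circ_0005358, against 15.4, 16.4 and 16.2 FPKM with vector (log2 fold change 0.25, limma, adjusted p = 0.0537). PSME2 was called higher in 2 of 17 alternatives, the filter of 5 FPKM (adjusted p = 0.0446) and library weights (adjusted p = 0.0395). For PSME1 the log2 fold change was 0.30 (limma, adjusted p = 0.111), and its groups did not overlap either. The ERAP1 row, joined with AC009126.1, and LNPEP went the other way without overlap. They averaged 6.06 and 7.86 FPKM with circ_0005358, against 8.41 and 9.74 FPKM with vector. Neither passed (log2 fold change -0.42 and -0.28, limma, adjusted p = 0.217 and 0.132). In the list, 5 tested rows were higher without overlap and 3 lower, against 19.8% and 15.9% of all tested loci.

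Of 15 rows of the constitutive proteasome core, 0 were called in either direction, against 11.4% of all tested loci. An unadjusted p under 0.05 was found for 4 of them, against 27.3% of all tested loci. Their median log2 fold change was 0.01. PSMB7 held 44.9 ± 3.34 FPKM with circ_0005358 and 37.1 ± 0.548 FPKM with vector (SD, n = 3 each; log2 fold change 0.26, limma, adjusted p = 0.0665). It passed without circ_0005358 replicate 2 (adjusted p = 0.0295) and with library weights (adjusted p = 0.0399). PSMB6 held 41.0 ± 1.85 FPKM with circ_0005358 and 40.6 ± 1.54 FPKM with vector (SD, n = 3 each; limma, adjusted p = 0.902). PSMB2 had the most negative log2 fold change of the list, -0.57, without overlap, and did not pass (limma, adjusted p = 0.139). It held 25.8 ± 5.71 FPKM with circ_0005358 and 38.3 ± 6.12 FPKM with vector (SD, n = 3 each). In the list, 4 rows were higher without overlap and 2 lower, against 19.8% and 15.9% of all tested loci.

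Of 23 genes of class I transcription and interferon signalling, all tested, 1 was called higher and 0 lower, with a median log2 fold change of 0.04. An unadjusted p under 0.05 was found for 6 of them, against 27.3% of all tested loci, of which 6.41% were called higher. NFYA, a subunit of the NF-Y factor that binds CCAAT boxes, rose to 2.99, 3.02 and 2.42 FPKM with circ_0005358, against 1.84, 1.41 and 1.46 FPKM with vector (log2 fold change 0.57, limma, adjusted p = 0.0277). The NFYA call was lost in 7 of 16 alternatives, among them without circ_0005358 replicates 1 or 2 and without vector replicates 2 or 3 (adjusted p = 0.0837, 0.0831, 0.0962 and 0.0909). NLRC5, the class I transactivator, held 3.96, 4.42 and 4.18 FPKM with circ_0005358, against 2.78, 3.27 and 3.48 FPKM with vector. Its groups did not overlap, but it did not pass (log2 fold change 0.31, interval 0.10 to 0.53, limma, adjusted p = 0.0791).

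IRF1, an interferon-induced transcription factor, held 2.83, 3.08 and 3.49 FPKM with circ_0005358, against 2.98, 4.44 and 3.72 FPKM with vector, and did not pass (log2 fold change -0.18; limma, adjusted p = 0.456). Its log2 fold change was -0.30 without vector replicate 1 and -0.07 without vector replicate 2.

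**Figure D4:**
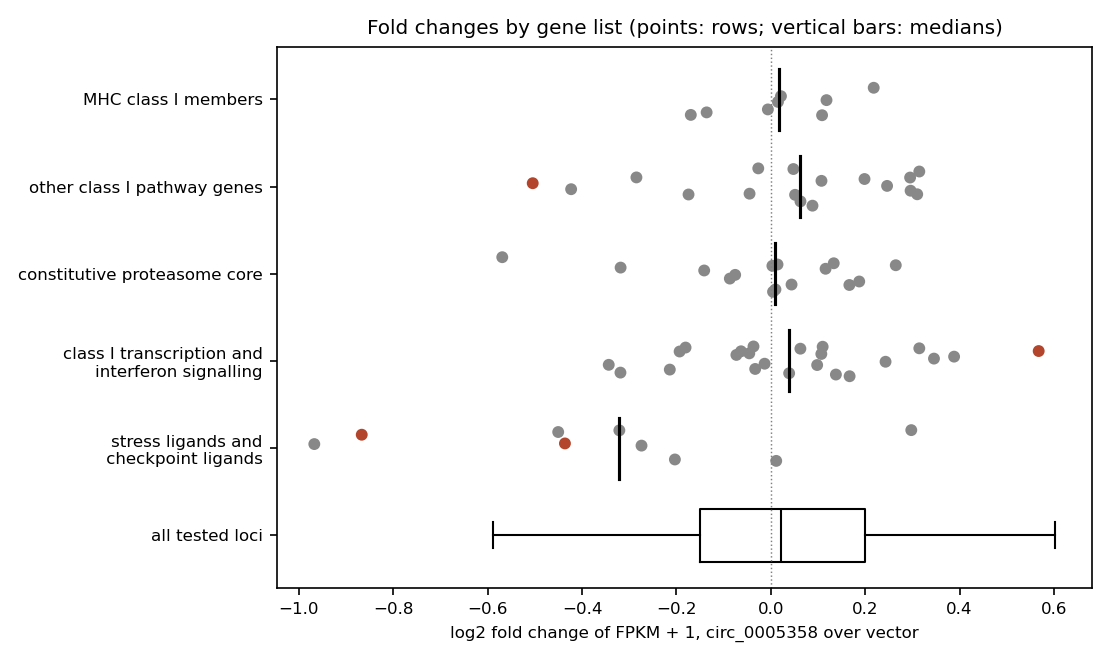
Log2 fold change of FPKM + 1 (circ_0005358 over vector) for each tested row of 5 gene lists, with list medians as vertical bars and called rows in red; the box of all 10295 tested loci spans the 25th to 75th percentile and its whiskers the 5th to 95th. The member rows lie between -0.17 and 0.22, the box between -0.15 and 0.20, and the stress and checkpoint ligands have the lowest median, -0.32.

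A list of 12 genes held surface ligands that natural killer cells, T cells and macrophages read beside class I. Of its 9 tested rows, 0 were called higher and 2 lower, with a median log2 fold change of -0.32, and 4 had an unadjusted p under 0.05. Over all tested loci, 4.96% were called lower and 27.3% had an unadjusted p under 0.05. The 3 genes that were not tested, CD274, PDCD1LG2 and RAET1L, stayed below 1 FPKM in every library. They averaged 0.170, 0.116 and 0.335 FPKM with circ_0005358, against 0.259, 0.525 and 0.746 FPKM with vector. The groups overlapped for CD274 but not for PDCD1LG2 and RAET1L. ULBP2, a ligand of the activating receptor NKG2D, fell to 18.8, 21.6 and 19.1 FPKM with circ_0005358, against 36.7, 34.1 and 40.01 FPKM with vector (log2 fold change -0.87, standard error 0.09, limma, adjusted p = 0.00412). CD47, which restrains phagocytosis, fell to 7.83, 7.57 and 7.36 FPKM with circ_0005358, against 11.4, 9.69 and 10.8 FPKM with vector (log2 fold change -0.44, limma, adjusted p = 0.022). The CD47 call was lost in 8 of 17 alternatives, among them without each circ_0005358 replicate (adjusted p = 0.0578, 0.0652 and 0.0818 for replicates 1, 2 and 3) and without vector replicates 1 or 3 (adjusted p = 0.0715 and 0.0766). The row with the most negative log2 fold change of the list, which joins PVR with CEACAM19, was chosen after its values were seen. PVR encodes a ligand of the receptors DNAM-1 and TIGIT, and its row held 3.70, 3.99 and 3.64 FPKM with circ_0005358, against 5.72, 11.3 and 8.86 FPKM with vector. Its groups did not overlap, and it did not pass (log2 fold change -0.97, limma, adjusted p = 0.0518). It was called lower in 4 of 17 alternatives, among them without vector replicate 1 (log2 fold change -1.20, adjusted p = 0.015). The count of rows called lower in this list ran from 0, under the replicate block, to 3.

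Of the class II pathway, whose genes professional antigen-presenting cells use, 11 rows carry 12 genes, and 1 row was tested, the one that HLA-DOB shares with TAP2. The other 10 rows stayed at or below 0.715 FPKM in every library and were not tested. Among them HLA-DRA, HLA-DRB1 and HLA-DQB1 were lower in every circ_0005358 library than in any vector library. Their means were 0.121, 0.293 and 0.0280 FPKM with circ_0005358, against 0.408, 0.574 and 0.0732 FPKM with vector. The groups overlapped for the remaining rows under the filter. Between HLA-E and TAPBP on chromosome 6, 53 other rows were tested, with a median log2 fold change of 0.02. Among them 0 were called higher and 1 lower (1.89%), against 4.96% of all tested loci called lower. That row joins C6orf48 and SNORD48 and held 13.0 ± 0.662 FPKM with circ_0005358 and 17.1 ± 0.726 FPKM with vector (SD, n = 3 each; limma, adjusted p = 0.0219).

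Among the epithelial markers of the line, 6 of 8 tested rows were called lower and 0 higher. The shares over all tested loci were 4.96% lower and 6.41% higher. The 6 rows called lower were KRT17, the joined row of KRT5 and KRT6A, KRT8, KRT18, KRT7 and EPCAM. The calls of KRT7 and EPCAM were lost when circ_0005358 replicate 1 or 3 or any 1 vector library was left out (adjusted p = 0.0688, 0.0895, 0.0524, 0.0864 and 0.0778 for KRT7 and 0.0564, 0.114, 0.123, 0.146 and 0.116 for EPCAM). The row that joins KRT19 with KRT9, KRT14 and KRT16 held 6.40, 9.73 and 0.00991 FPKM with circ_0005358, against 35.8, 30.6 and 34.5 FPKM with vector, and did not pass (log2 fold change -3.002, limma, adjusted p = 0.0999). Without circ_0005358 replicate 3 its log2 fold change was -1.95 and it passed (adjusted p = 0.0138). Of the 8 fibroblast and endothelial markers, 2 were tested and LUM fell to 1.43 ± 0.294 FPKM with circ_0005358, against 7.47 ± 1.53 FPKM with vector (SD, n = 3 each; limma, adjusted p = 0.00285). Among the markers under the filter, COL3A1 held 0.784, 0.824 and 0.857 FPKM with circ_0005358, against 0.0862, 0.0357 and 0.206 FPKM with vector, and it was called higher when every locus above 0 was tested (limma, adjusted p = 0.034). PECAM1 and DCN were also higher in every circ_0005358 library, at means of 0.301 and 0.205 FPKM with circ_0005358, against 0.168 and 0.156 FPKM with vector, and COL1A1 was lower in every one, at 0.251 FPKM with circ_0005358 and 0.531 FPKM with vector. These values were measured in the same libraries as the class I genes, and their part in the class I values was not tested.

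Across the 6 libraries, the log2(FPKM + 1) profiles of member rows were most alike for PSMB8 and the HLA-B and HLA-C row, with a Pearson r of 0.90, and for PSMB8 and TAP1, with 0.67. The libraries share their group, scaling and depth, so these are descriptions. The single-name locus most like each member was MTERF4 for B2M (0.98), PHB2 for the HLA-B and HLA-C row (0.99), H2AFX for HLA-E (0.998), MRPS27 for TAP1 (0.99), ZMAT3 for the TAP2 row (0.99), COX20 for the TAPBP row (0.97), FKBP4 for PSMB8 (0.998) and OSER1-AS1 for the PSMB9 row (0.99). With 6 libraries and 9287 or 9288 loci compared, between 3 and 63 loci had an r above 0.95 with a given member.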

How the data were processed

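The 6 polyA RNA libraries of SiHa cells were compared, 3 with the circ_0005358 plasmid and 3 with vector. The authors deposited 1 table of FPKM values with 35544 rows; 2456 rows held 0 in every library, 16797 carry identifiers of the kind made by transcript assembly and 1186 join several names. The submitters' processing notes name Trimmomatic, HISAT2 and the hg19 build; for versions, annotation and the FPKM program the entry is: not given in the sources used here.

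Members and lists were chosen with earlier results of these data known. A symbol was matched to the row that holds it (the highest mean where several do), and a joined row was counted once. The 10295 loci that reached 1 FPKM in 3 or more libraries were tested with limma 3.58.1 in R 4.3.3 on log2(FPKM + 1) with a variance trend, Benjamini-Hochberg adjustment over all of them and a threshold of 0.05. The procedure was tested on simulated data. Fold changes on this scale understate the change of low genes. Exact permutation tests used scipy 1.17.1. Of 5 planned ratios, the 4 with a joined row were not tested, so only 1 p-value stands in that family. Named by rule are the members, NLRC5, IRF1, the genes of the ratios, up to 6 called genes of each list and the locus most like each member. Others were chosen after their values were seen, among them CD14, the KRT19 row, COL3A1, PECAM1, DCN and COL1A1. So were the ERAP1 row, LNPEP, PSMB2, TP63, CDKN2A, HLA-DRA, HLA-DRB1, HLA-DQB1, CD274, PDCD1LG2 and RAET1L. Of the planned list genes, 2 are not reported here and are left out of the list counts. Positions are from GENCODE 29 on GRCh38, since the table holds none, and promoters from RefSeq. Alternatives changed the pseudocount (0.1 and 0.5), filter, scaling, variance model, library weights, replicate block and row choice, or left out libraries.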

Additional observations from a re-analysis of the deposited data

How the results depend on the processing

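None of the 8 member rows was called in any of the 17 alternatives in which it was tested (the TAP2 and PSMB9 rows fell under the filter of 5 FPKM). Of 134 member values, 119 kept their sign and 15 changed it, all of HLA-E, TAP1 and the TAPBP row, whose log2 fold changes are near 0, with no adjusted p under 0.438. Rescaling to the same sum gave -0.0109 for TAP1, -0.0177 for TAPBP and -0.0208 for PSMB6, and quantile normalization -0.0198, -0.0217 and -0.0292. Library weights gave 0.0025 for HLA-E and -0.0401 for TAPBP. Leaving out 1 library at a time gave -0.0739 to 0.0518 for HLA-E, -0.0603 to 0.0897 for TAP1, -0.183 to 0.134 for TAPBP, -0.0191 to 0.0438 for PSMB6, -0.0033 to 0.10 for PSMB10 and -0.144 to 0.043 for the log2 PSMB8 to PSMB5 ratio. Without both vector replicate 3 and circ_0005358 replicate 2, a setting chosen after the data were seen, values were 0.0035 for HLA-E, -0.0673 for TAP1, -0.0065 for TAPBP and -0.0221 for PSMB6. Over all loci, 1171 were called, against 591 with no filter on low values, 485 to 761 with 1 library left out and 198 with those 2 left out. In that last setting KRT8 and KRT18 were not called. Deviations of same-numbered libraries from their group means correlated at 0.06, 0.05 and 0.08, and those of different-numbered libraries at -0.054 to -0.011. The deviations of a group cancel at each locus, so positive values for same numbers push those for different numbers below 0. These sets of values are therefore not independent. The labels do not say that numbers pair libraries. With the number as a replicate block 259 loci and 0 members were called. ULBP2 was not called there (adjusted p = 0.0585). The cause of these differences was not tested. Absolute depth is unknown, and the 3 libraries a group limit the precision.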
